A study of Homo sapiens with 6 samples.

Results

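The mRNA levels of 30 genes of cholesterol and fatty acid synthesis were followed in K562 cells in which METTL3 or METTL14 had been knocked down. The genes were taken as a list of symbols of the SREBP (sterol regulatory element-binding protein) pathway and matched by Ensembl identifier. No measured value enters the matching, but the list was chosen with earlier results of these data known. All 30 were found among the 61661 identifiers of the count table, and all 30 were among the 17686 genes with enough reads to be tested. By role they fall into 4 regulators, 8 enzymes from acetyl-CoA units to squalene, 10 enzymes from squalene to cholesterol, 1 sterol transport protein and 7 enzymes of fatty acid synthesis and desaturation.

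K562 is an established cell line from a chronic myeloid leukemia in blast crisis. METTL3 and METTL14 form the core of the methyltransferase complex that writes N6-methyladenosine (m6A) on mRNA. RNA-seq was run on 6 libraries, 2 of each group: shCTR cells with a control short hairpin RNA, shMETTL3 cells with a hairpin against METTL3, and shMETTL14 cells with a hairpin against METTL14. According to the study's methods, the METTL3 hairpin and the nonsense control hairpin were delivered by lentivirus from a U6 promoter with GFP and a puromycin marker, and stable lines were kept by puromycin selection in serum-containing medium. The METTL14 construct is not described there. All groups therefore carry a hairpin, and the labels tell no hairpins or clones apart within a group. The labels do not say whether the 2 libraries of a group came from separate cultures, so p-values measure the spread between these libraries, which may be technical.

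Cells make cholesterol from acetyl-CoA through mevalonate, squalene and lanosterol. The SREBP transcription factors are made as membrane-bound precursors. When sterols are low, SCAP escorts them from the endoplasmic reticulum to the Golgi, where they are cut and their active part is released to the nucleus. INSIG proteins hold SCAP back when sterols are high. SREBP2 acts mainly on cholesterol genes and SREBP1 mainly on fatty acid genes, and both bind sterol regulatory elements, often next to NF-Y sites, in the promoters of their targets. Leukemia cells use both routes to supply membranes during growth.

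Promoters are shown for the 2 genes that passed the threshold in both knockdowns, LSS and FADS1, and for SREBF2, whose promoter held the sterol regulatory element core. The sequences are the 250 bases before the start site on the gene's strand, from RefSeq on GRCh38.p14. LSS lies on the minus strand at chr21:46228775-46229024, FADS1 on the minus strand at chr11:61817004-61817253, and SREBF2 on the plus strand at chr22:41832855-41833104. Capitals mark matches to TCACNCCAC, the core of a sterol regulatory element, and to CCAAT, the NF-Y box, on either strand.
LSS: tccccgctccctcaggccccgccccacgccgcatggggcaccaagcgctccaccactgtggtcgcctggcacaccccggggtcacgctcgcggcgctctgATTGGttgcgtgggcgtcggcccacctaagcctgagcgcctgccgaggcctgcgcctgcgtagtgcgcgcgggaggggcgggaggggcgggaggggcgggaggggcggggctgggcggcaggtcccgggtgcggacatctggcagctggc
FADS1: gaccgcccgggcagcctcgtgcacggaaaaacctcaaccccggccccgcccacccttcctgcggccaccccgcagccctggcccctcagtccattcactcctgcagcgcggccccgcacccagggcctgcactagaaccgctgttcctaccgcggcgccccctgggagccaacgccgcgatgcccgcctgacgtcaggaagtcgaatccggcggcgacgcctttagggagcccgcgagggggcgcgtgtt
SREBF2: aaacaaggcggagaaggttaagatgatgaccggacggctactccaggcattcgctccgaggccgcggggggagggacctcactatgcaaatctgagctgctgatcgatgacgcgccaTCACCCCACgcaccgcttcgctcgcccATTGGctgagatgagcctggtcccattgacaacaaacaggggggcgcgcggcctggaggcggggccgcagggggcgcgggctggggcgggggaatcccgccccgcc

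The motif search covered windows from 250 bases before to 50 bases after the start site, and 26 of the 30 members had at least 1 such window, 35 in all. The element core TCACNCCAC was found in 1 of these 35 windows (2.9%), that of SREBF2, where it begins at position -133, against 1.1% of 35116 promoters. CCAAT was found in 24 windows (68.6%), against 34.6% of all promoters. The GC box GGGCGG was found in 31 (88.6%, against 45.0%) and the E-box CACGTG in 5 (14.3%, against 7.3%). The LSS promoter held 1 CCAAT match and that of FADS1 held neither of the marked motifs. These are letter matches in short windows, searched on both strands, and they do not show binding.

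Library totals ran from 19292574 to 20115304 reads, and the members took 0.735% to 0.781% of them. The targeted genes were lower in the libraries named for them. METTL3 had 1031 and 938 reads in shMETTL3 cells, against 1788 and 1728 in shCTR cells (log2 fold change -0.87, 0.549-fold). METTL14 had 375 and 404 reads in shMETTL14 cells, against 656 and 655 (log2 fold change -0.76, 0.589-fold). All 10 genes that mark K562 were above 3 reads in every library, although HBG1 reached at most 22. Of 12 markers of other cell types, 5 were at no more than 3 reads throughout. The monocyte markers summed to between 313 and 325 reads in shMETTL3, 831 and 841 in shCTR and 1178 and 1276 in shMETTL14 cells, almost all of it LYZ, with CD14 at no more than 3 reads. The epithelial marker EPCAM had 728 to 733 reads in shMETTL3, 799 to 822 in shMETTL14 and 1042 to 1083 in shCTR cells. The sums ran from 125 to 130 reads for fibroblast markers in shMETTL3, against 53 to 68 in shCTR and 74 to 75 in shMETTL14 cells, and from 100 to 120 for T cell markers, against 64 to 72 and 85 to 93. B cell markers summed to between 31 and 69 reads and mesothelial markers to between 5 and 15. The part of these differences in the results was not tested.

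Levels between members were compared as CPM, reads scaled to library size, per kb of exon (CPM per kb) in shCTR cells. Exon length joined all annotated exons of a gene, from 1.28 kb for PMVK to 13.0 kb for ACACA. Exons not used in these cells would lower the value, so the order depends on the annotation. The stearoyl-CoA desaturase SCD, which makes monounsaturated fatty acids, stood first with 209.8 CPM per kb. Next came FDFT1, the squalene synthase, with 121, followed by HMGCS1 with 96.7, INSIG1 with 94.9 and FASN with 90.8 CPM per kb. At the low end were HSD17B7 with 6.72, SC5D with 3.89, FADS2 with 3.60 and CYP51A1 with 2.00 CPM per kb. CYP51A1, the lanosterol demethylase, had 111 to 149 reads per library, and its exons overlap 2 other genes on the same strand. HMGCS1, INSIG1 and FASN lay closer together than the 2 shCTR libraries of HMGCS1 (499 and 411 CPM) did, so their order is not resolved. In the knockdowns SCD also stood first, with 225 CPM per kb in shMETTL3 and 221 in shMETTL14 cells, and CYP51A1 last, with 1.72 and 2.01.

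**Figure D1:**
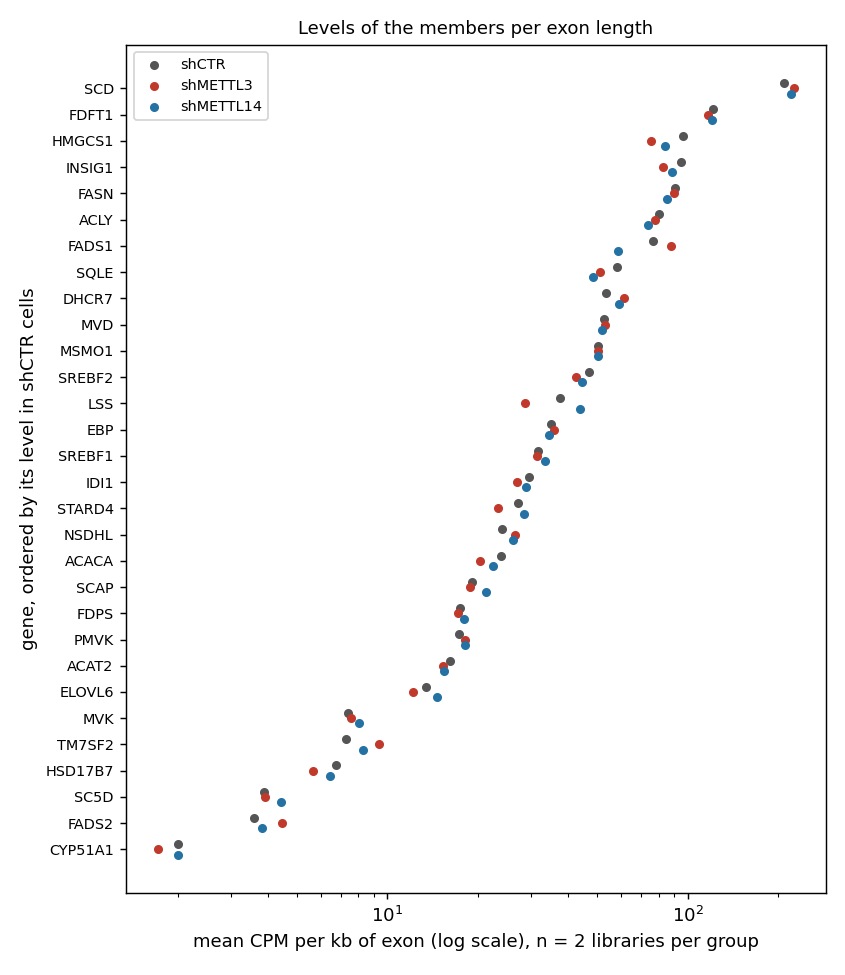
Mean CPM per kb of exon of the 30 members (horizontal axis, log scale) in shCTR, shMETTL3 and shMETTL14 cells, 2 libraries each, ordered by the level in shCTR cells. The genes span from 2.00 CPM per kb for CYP51A1 to 209.8 for SCD, and the 3 groups lie close together for each gene.

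In shMETTL3 cells, 8 of the 30 members passed an adjusted p of 0.05 against shCTR cells, where 16.5% of all tested genes did. TM7SF2, FADS2, FADS1 and DHCR7 rose, and LSS, HMGCS1, ACACA and INSIG1 fell. The 4 members that rose stand against 8.73% of all genes and the 4 that fell against 7.73%. All 8 changes were small, between 1.15-fold and 1.31-fold in either direction. In bulk RNA a lower share of cells that express a gene and less of its RNA per cell cannot be told apart. The members' median log2 fold change was -0.02, with that of all tested genes at 0.003. The libraries did not overlap for 17 of the 30 members, where 56% of all tested genes did not overlap. The median of the members turned positive, 0.03, when counts were scaled by library size alone, and 6 members then passed, 4 higher and 2 lower, where 17.1% of all genes did (12.2% higher and 4.85% lower). With the trend of fold change with GC content and length removed, the median was -0.09 and 10 members passed, 1 higher and 9 lower, where 19.9% of all genes did (9.24% higher and 10.7% lower).

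In shMETTL14 cells, 3 of the 30 members passed against shCTR cells, where 6.69% of all genes did. LSS rose (3.43% of all genes did) and FADS1 and SQLE fell (3.26% of all genes did). The median log2 fold change of the members was 0.0006 and that of all genes -0.0001. The libraries did not overlap for 17 members, against 48.9% of all genes. The other 27 members had log2 fold changes from -0.20 to 0.19, with standard errors from 0.05 to 0.16.

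Both comparisons use the same shCTR libraries, so their values are set side by side and the difference between the knockdowns was tested directly. In this test, 5 members passed, where 12.1% of all genes did. FADS1 and FADS2 were higher in shMETTL3 than in shMETTL14 cells (6.65% of all genes were), and LSS, STARD4 and ELOVL6 were lower (5.49% of all genes were). The libraries did not overlap for 18 members, against 56.7% of all genes. With the GC and length trend removed, 7 members passed, 1 higher and 6 lower, where 17.4% of all genes did (8.41% higher and 9.04% lower).

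**Figure D2:**
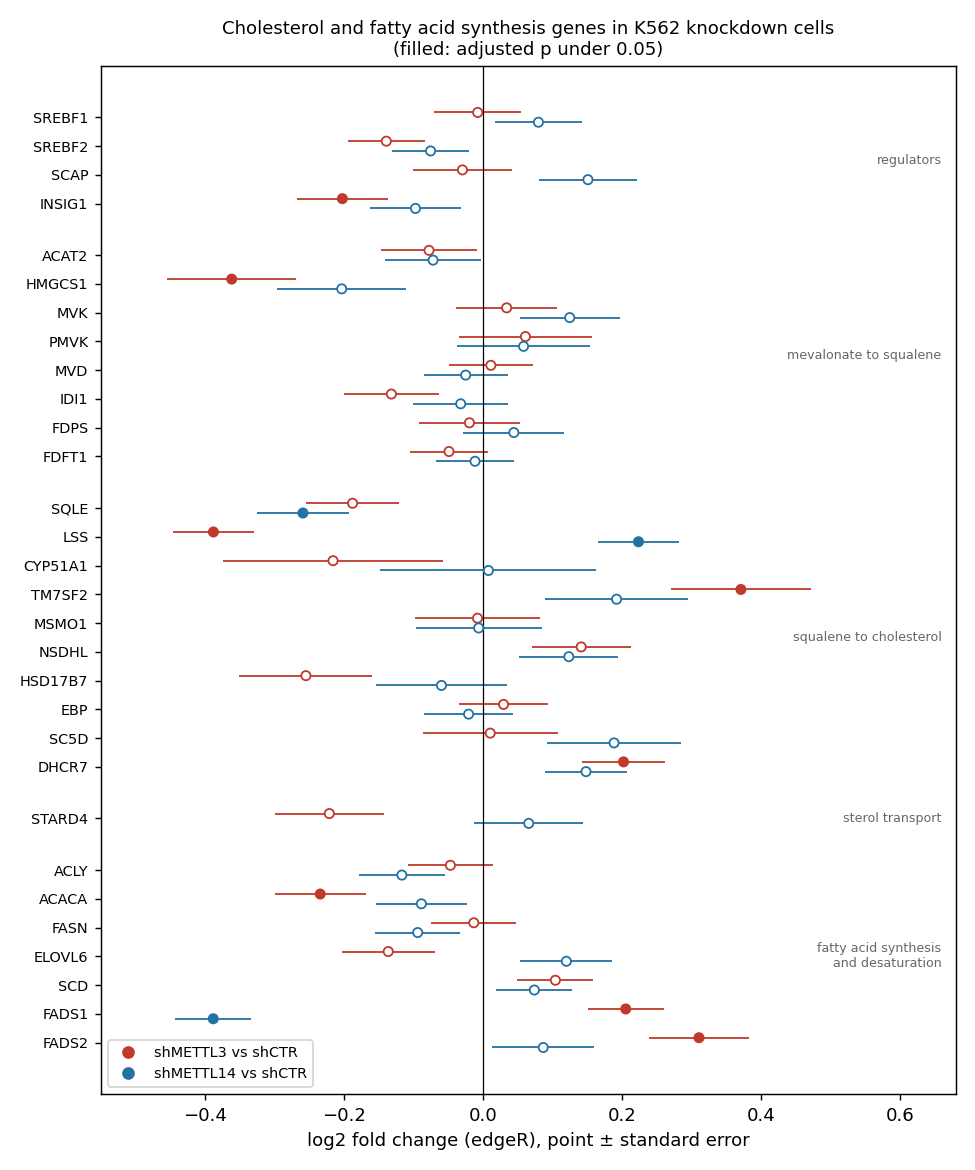
Log2 fold change against shCTR cells (horizontal axis, point with standard error, edgeR, 2 libraries per group) of the 30 members, grouped by role, with red for shMETTL3 and blue for shMETTL14 cells, and filled points for adjusted p under 0.05. LSS and FADS1 are filled on opposite sides of 0 in the knockdowns, and most other members lie within 0.25 of 0.

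The regulators are the SREBP precursors SREBF1 and SREBF2, their escort SCAP and the retention protein INSIG1. INSIG1, itself a target of SREBP, had 351 and 342 CPM in the shCTR libraries, 318 and 284 in those of shMETTL3 and 309 and 339 in those of shMETTL14. Both shMETTL3 libraries lay under both shCTR libraries, and so did both shMETTL14 libraries, 1 of them by a narrow margin. Its log2 fold change was -0.20 ± 0.07 (SE, adjusted p = 0.0394) in shMETTL3 and -0.10 ± 0.07 (adjusted p = 0.432) in shMETTL14 cells, by edgeR's quasi-likelihood test. The call of INSIG1 in shMETTL3 cells was lost when either shMETTL14 library was left out (adjusted p = 0.0533 and 0.0545), without shCTR replicate 1 (0.1) and without shMETTL3 replicate 2 (0.467). It was also lost with library size alone as scaling (0.13), with no filter on low counts (0.0642) and with the 2 groups fitted alone (0.0577).

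SREBF2 had 357 and 352 CPM in the shCTR libraries, 324 and 319 in those of shMETTL3 and 336 and 336 in those of shMETTL14. The shCTR libraries were the highest, without overlap, but its log2 fold changes of -0.14 ± 0.06 (adjusted p = 0.0949) and -0.08 ± 0.06 (adjusted p = 0.479) did not pass. SREBF1 had 241 and 269 CPM in the shCTR libraries, 252 and 256 in those of shMETTL3 and 274 and 265 in those of shMETTL14, so the shCTR libraries spanned the shMETTL3 ones. SCAP had 115 and 132 CPM in the shCTR libraries, 117 and 125 in those of shMETTL3 and 136 and 137 in those of shMETTL14. SCAP was highest in shMETTL14 cells, with a log2 fold change of 0.15 ± 0.07 against shCTR cells (adjusted p = 0.228). In shMETTL14 cells no regulator passed with edgeR or DESeq2 when all 6 libraries and the GC and length trend were kept. SCAP alone had an unadjusted p under 0.05 in these cells by edgeR with TMM scaling. SCAP passed there without shCTR replicate 2 (log2 fold change 0.25, adjusted p = 0.0183). Between the knockdowns SCAP differed by -0.18 ± 0.07 (adjusted p = 0.109) and passed without shCTR replicate 1 or 2 (adjusted p = 0.0238 for both) and with the 2 groups fitted alone (0.0277).

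From acetyl-CoA units to squalene, ACAT2 joins the first 2 units, HMGCS1 makes HMG-CoA, MVK, PMVK and MVD phosphorylate mevalonate and decarboxylate the product, IDI1 isomerizes the isoprene unit, FDPS builds farnesyl diphosphate and FDFT1 joins it to squalene. HMGCS1 had 499 and 411 CPM in the shCTR libraries, 399 and 309 in those of shMETTL3 and 390 and 400.2 in those of shMETTL14. All 4 knockdown libraries lay under the lower shCTR library, but the 2 libraries of shCTR and of shMETTL3 cells stood far apart. In shMETTL3 cells the difference between the replicates of HMGCS1, -0.37 on the log2 scale, was the largest of any member. By edgeR, HMGCS1 had a log2 fold change of -0.36 ± 0.09 (adjusted p = 0.0109) in shMETTL3 and -0.20 ± 0.09 (adjusted p = 0.214) in shMETTL14 cells. The former was -0.22 (adjusted p = 0.153) without shCTR replicate 1 and -0.19 (adjusted p = 0.292) without shMETTL3 replicate 2. It did not pass with DESeq2 either.

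With TMM scaling, all 6 libraries and the GC and length trend kept, the other 7 genes of this stretch did not pass in any comparison. IDI1 had 134 and 124 CPM in the shCTR libraries, 118 and 118 in those of shMETTL3 and 119 and 133 in those of shMETTL14 (log2 fold changes -0.13 and -0.03). FDFT1 had 637 and 623 CPM in the shCTR libraries, 628 and 590.0 in those of shMETTL3 and 615 and 635 in those of shMETTL14 (log2 fold changes -0.05 and -0.01). ACAT2, MVK, PMVK, MVD and FDPS had log2 fold changes between -0.08 and 0.06 in shMETTL3 and between -0.07 and 0.12 in shMETTL14 cells. In shMETTL14 cells no gene of this stretch passed with edgeR or DESeq2, and HMGCS1 alone had an unadjusted p under 0.05. HMGCS1 passed there without shCTR replicate 2 (-0.34, adjusted p = 0.0256), and between the knockdowns without shMETTL3 replicate 1 (-0.35, adjusted p = 0.0334, against -0.16 and 0.313 with all libraries). FDPS has 8 annotated pseudogenes, so its count is uncertain.

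LSS makes lanosterol, the first sterol ring structure, from oxidosqualene. It had 268 and 275 CPM in the shCTR libraries, 204 and 210.2 in those of shMETTL3 and 323 and 310.4 in those of shMETTL14. The 3 groups did not overlap, with shMETTL3 lowest, shCTR between and shMETTL14 highest, and the replicates of each group lay close together. Against shCTR cells its log2 fold change was -0.39 ± 0.06 (adjusted p = 0.000135, 0.764-fold) in shMETTL3 and 0.22 ± 0.06 (adjusted p = 0.0233, 1.17-fold) in shMETTL14 cells. Between the knockdowns it was -0.61 ± 0.06 (adjusted p = 5.35e-07, 0.654-fold), which is the test of the difference between the effects of the hairpins. The fall in shMETTL3 cells and the difference between the knockdowns passed under all 14 alternative settings. The rise in shMETTL14 cells passed under 9 of 14, with log2 fold changes from 0.18 to 0.25, and was lost without any of the libraries other than shCTR replicate 2 (adjusted p from 0.0515 to 0.275). Of the printed promoters, that of LSS held a CCAAT match and no sterol element core.

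SQLE, the squalene epoxidase, acts just before LSS. It had 260 and 240.0 CPM in the shCTR libraries, 232 and 206 in those of shMETTL3 and 206 and 212 in those of shMETTL14. Both knockdowns lay under shCTR cells without overlap. Its log2 fold change was -0.19 ± 0.07 in shMETTL3 (adjusted p = 0.0594) and -0.26 ± 0.07 in shMETTL14 cells (adjusted p = 0.0225). The values in the knockdowns differed by 0.07 ± 0.07 (adjusted p = 0.561). With all 6 libraries and the replicate number added to the fit, SQLE passed in shMETTL3 cells (-0.19, adjusted p = 0.0277). In shMETTL3 cells SQLE passed without shCTR replicate 2 (adjusted p = 0.0145) and without shMETTL3 replicate 1 (0.049). The call of SQLE in shMETTL14 cells was lost without shCTR replicate 1 (adjusted p = 0.107), without shMETTL14 replicate 1 (0.251) and without shMETTL14 replicate 2 (0.12).

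TM7SF2 and DHCR7 are sterol reductases of the later steps, DHCR7 catalyzing the last step to cholesterol in 1 branch. TM7SF2 had 21.7 and 27.8 CPM in the shCTR libraries, 32.2 and 31.7 in those of shMETTL3 and 28.8 and 27.7 in those of shMETTL14. The shMETTL3 libraries were the highest, and the shCTR libraries differed by 0.36 on the log2 scale, the widest gap of any member in shCTR cells. TM7SF2 had log2 fold changes of 0.37 ± 0.10 (adjusted p = 0.0159) in shMETTL3 and of 0.19 ± 0.10 (adjusted p = 0.301) in shMETTL14 cells. The former was 0.20 (adjusted p = 0.186) without shCTR replicate 1, and it also missed the threshold without shMETTL3 replicate 1 (adjusted p = 0.0942), without shMETTL3 replicate 2 (0.0867) and with DESeq2. In shMETTL14 cells TM7SF2 passed without shCTR replicate 2 (0.38, adjusted p = 0.0165). TM7SF2 shares exons with VPS51 on the same strand.

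DHCR7 had 217 and 227 CPM in the shCTR libraries, 257 and 253 in those of shMETTL3 and 252 and 239 in those of shMETTL14. All 4 knockdown libraries lay above both shCTR libraries. DHCR7 had log2 fold changes of 0.20 ± 0.06 (adjusted p = 0.0238) in shMETTL3 and of 0.15 ± 0.06 (adjusted p = 0.154) in shMETTL14 cells, and the knockdowns differed by 0.05 ± 0.06 (adjusted p = 0.631). The call of DHCR7 was lost without shCTR replicate 1 (adjusted p = 0.0802), without shMETTL3 replicate 1 (0.163) and without shMETTL3 replicate 2 (0.133).

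The remaining 6 enzymes after LSS did not pass in any comparison with all 6 libraries: CYP51A1, MSMO1, NSDHL and HSD17B7, which strip methyl groups from lanosterol, EBP, which moves a ring double bond, and SC5D, a sterol desaturase. HSD17B7 had 34.0 and 30.3 CPM in the shCTR libraries, 27.8 and 26.1 in those of shMETTL3 and 28.2 and 33.4 in those of shMETTL14, with -0.26 ± 0.10 as its log2 fold change in shMETTL3 cells (adjusted p = 0.0752, and 0.0275 without shCTR replicate 2). MSMO1 had 159 and 133 CPM in the shCTR libraries, 159 and 132 in those of shMETTL3 and 135 and 155 in those of shMETTL14, so its groups overlapped fully. EBP lay between 82.9 and 87.7 CPM in all 6 libraries. NSDHL had 47.7 and 48.3 CPM in shCTR cells and between 50.8 and 54.3 in the knockdowns, with log2 fold changes of 0.14 and 0.12. Counting is uncertain for CYP51A1, with 3 annotated pseudogenes and 2 overlapping genes on its strand, and for HSD17B7, with 2 pseudogenes.

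STARD4 carries cholesterol between membranes and is the one transport protein of the list. It had 167 and 142 CPM in the shCTR libraries, 142 and 123 in those of shMETTL3 and 157 and 166 in those of shMETTL14. The shMETTL3 libraries lay under both shMETTL14 libraries, and the shCTR libraries spread across the gap. For STARD4 the log2 fold change was -0.22 ± 0.08 (adjusted p = 0.0609) in shMETTL3 and 0.07 ± 0.08 (adjusted p = 0.692) in shMETTL14 cells. Between the knockdowns it was -0.29 ± 0.08 (adjusted p = 0.0198). With the replicate number added to the fit, STARD4 passed in shMETTL3 cells (-0.22, adjusted p = 0.028). In shMETTL3 cells STARD4 passed without shCTR replicate 2 (-0.34, adjusted p = 0.00392) and without shMETTL3 replicate 1 (-0.33, adjusted p = 0.0441). The difference between the knockdowns was -0.19 (adjusted p = 0.342) without shMETTL3 replicate 2, -0.33 (0.0794) without shMETTL14 replicate 1 and -0.24 (0.215) without shMETTL14 replicate 2.

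**Figure D3:**
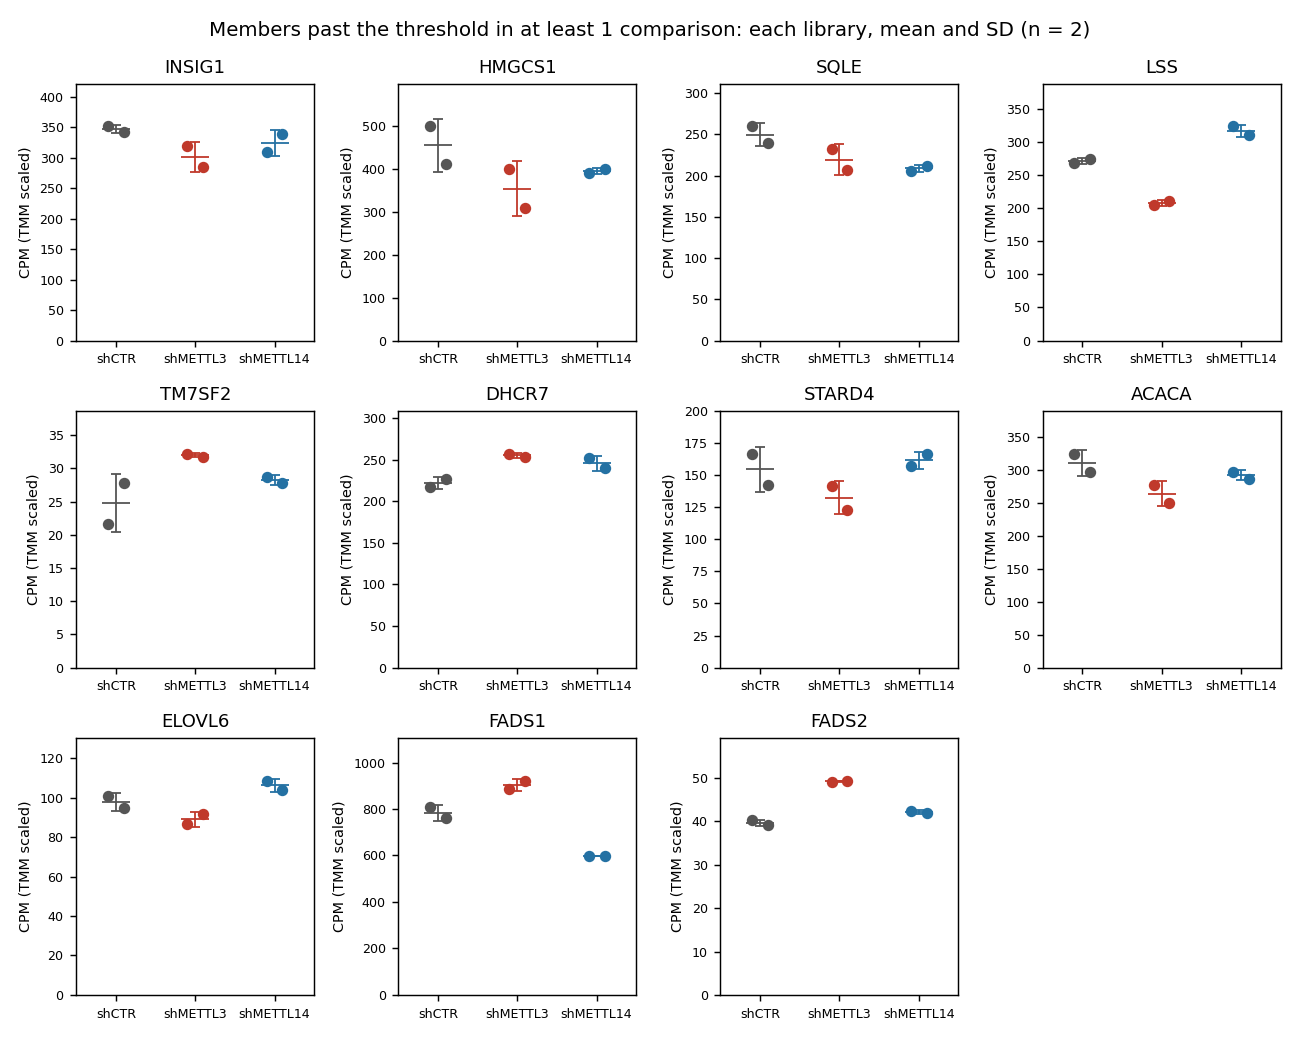
CPM scaled by TMM factors (vertical axes from 0) in each library, with the mean and SD of the 2 libraries per group, for the 11 members past the threshold in at least 1 comparison. In the LSS and FADS1 panels the 3 groups are separated by more than the gap between replicates, while HMGCS1 and TM7SF2 show a wide gap between the shCTR libraries.

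FADS1, the delta-5 desaturase that makes arachidonic acid and related polyunsaturated fatty acids, passed in all 3 comparisons, as did LSS. It had 808 and 759 CPM in the shCTR libraries, 885 and 921 in those of shMETTL3 and 598 and 599 in those of shMETTL14. The groups did not overlap, with shMETTL14 lowest, shCTR between and shMETTL3 highest, the opposite order to LSS. The log2 fold change was 0.21 ± 0.05 (adjusted p = 0.014, 1.15-fold) in shMETTL3 and -0.39 ± 0.05 (adjusted p = 0.00013, 0.764-fold) in shMETTL14 cells. Between the knockdowns it was 0.59 ± 0.05 (adjusted p = 4.18e-07, 1.51-fold). The fall in shMETTL14 cells and the difference between the knockdowns passed under all 14 alternatives, from -0.43 to -0.34 and from 0.57 to 0.62. The rise in shMETTL3 cells passed under 12 of 14 and was lost without shMETTL3 replicate 1 (adjusted p = 0.0661) or replicate 2 (0.194).

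FADS2, the delta-6 desaturase, acts upstream of FADS1 in the same route. It had 40.2 and 39.2 CPM in the shCTR libraries, 49.2 and 49.4 in those of shMETTL3 and 42.4 and 41.9 in those of shMETTL14. The shMETTL3 libraries were the highest and the shMETTL14 libraries lay just above those of shCTR cells. The log2 fold change of FADS2 was 0.31 ± 0.07 (adjusted p = 0.00573) in shMETTL3 and 0.09 ± 0.07 (adjusted p = 0.55) in shMETTL14 cells, and 0.22 ± 0.07 (adjusted p = 0.0465) between the knockdowns. Without shMETTL3 replicate 1 or 2 the first of these had an adjusted p of 0.0509 or 0.0668, and without any 1 of the 4 knockdown libraries the last had one from 0.195 to 0.26. The difference between the knockdowns also missed the threshold with DESeq2 (adjusted p = 0.192), with no filter on low counts (0.108) and with the GC and length trend removed (0.15, adjusted p = 0.127). FADS1 and FADS2 overlap on opposite strands of chromosome 11, and FADS2 also overlaps FEN1 on its own strand. Whether reads were counted by strand is not given in the sources used here, so reads of FADS1 and FADS2 in the shared stretch cannot be assigned with certainty. In all, 14 members share this limit, as their exons overlap a gene on the opposite strand. LSS, HMGCS1, ACAT2 and STARD4 are among them.

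ACLY makes cytosolic acetyl-CoA, ACACA turns it into malonyl-CoA in the committed step of fatty acid synthesis, FASN assembles palmitate, ELOVL6 lengthens it and SCD desaturates the product. ACACA had 325 and 297 CPM in the shCTR libraries, 278 and 251 in those of shMETTL3 and 298 and 287 in those of shMETTL14. The shMETTL3 libraries were the lowest, without overlap. The log2 fold change was -0.23 ± 0.07 (adjusted p = 0.0179) in shMETTL3 and -0.09 ± 0.07 (adjusted p = 0.477) in shMETTL14 cells, and the former was lost without shCTR replicate 1 (adjusted p = 0.102) and without shMETTL3 replicate 2 (0.308). It was also lost when counts were scaled by library size alone.

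ELOVL6 had 101 and 94.6 CPM in the shCTR libraries, 86.4 and 91.5 in those of shMETTL3 and 109 and 104 in those of shMETTL14. Its groups did not overlap and followed the order of LSS. ELOVL6 had a log2 fold change of -0.14 ± 0.07 (adjusted p = 0.176) in shMETTL3 and 0.12 ± 0.07 (adjusted p = 0.318) in shMETTL14 cells, neither past the threshold, and -0.26 ± 0.07 (adjusted p = 0.0138) between the knockdowns. The last was lost without any 1 of the 4 knockdown libraries, with adjusted p from 0.0622 to 0.188.

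SCD, FASN and ACLY are all among the 6 highest members by level. With TMM scaling, all 6 libraries and the GC and length trend kept, they did not pass in any comparison. With that trend removed, FASN passed in both knockdowns against shCTR cells. With the replicate number added to that fit, SCD passed in shMETTL3 cells (0.10, adjusted p = 0.0403) and ACLY in shMETTL14 cells. SCD had 1175 and 1075 CPM in the shCTR libraries, 1223 and 1196 in those of shMETTL3 and 1178 and 1190 in those of shMETTL14, all 4 knockdown libraries above shCTR (log2 fold changes 0.10 and 0.07, both with SE 0.05). In shMETTL3 cells SCD passed without shCTR replicate 1 (0.17, adjusted p = 0.0414). FASN had 825 and 876 CPM in the shCTR libraries, 893 and 792 in those of shMETTL3 and 813 and 781 in those of shMETTL14, with the shMETTL3 libraries on either side of the shCTR ones. ACLY had 429 and 407 CPM in the shCTR libraries, 414 and 395 in those of shMETTL3 and 405 and 366 in those of shMETTL14 (log2 fold changes -0.05 and -0.12).

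**Figure D4:**
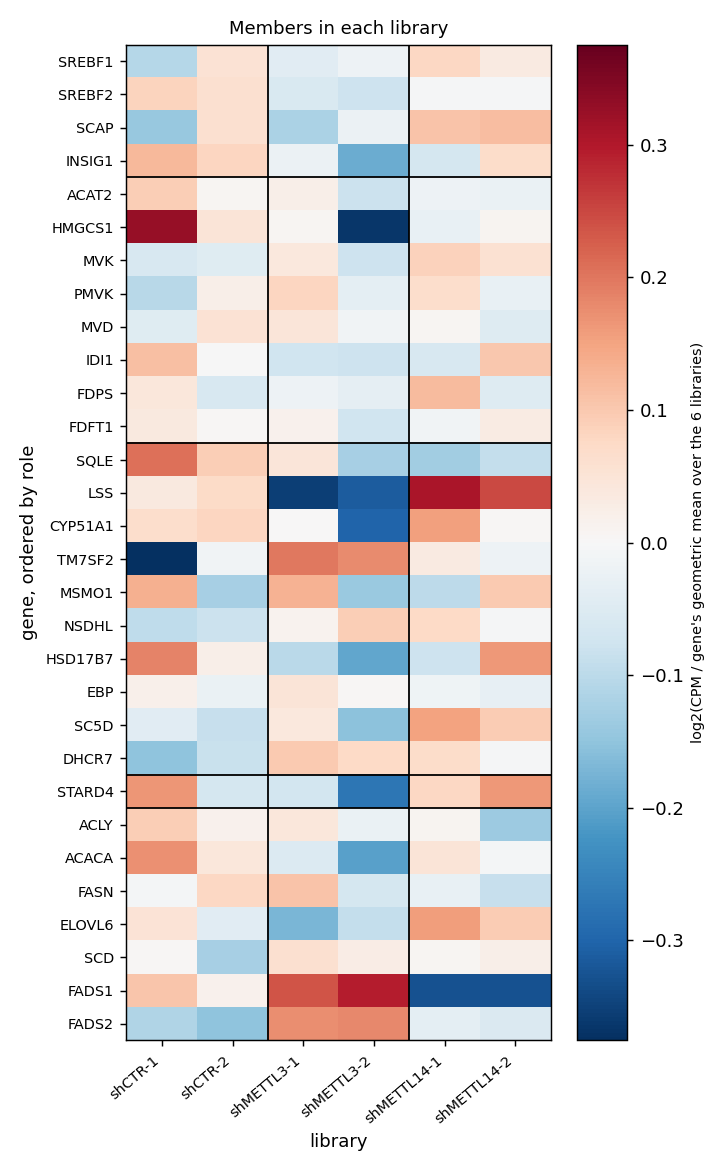
Log2 of CPM over the gene's geometric mean across the 6 libraries, with members in rows by role and libraries in columns, red above and blue below the mean (the colour scale ends at 0.38 on either side). LSS is blue in both shMETTL3 and red in both shMETTL14 libraries, and FADS1 shows the reverse, while HMGCS1 is darkest in shCTR-1 and shMETTL3-2.

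The members also varied between replicates. In shMETTL3 cells, 23 of 30 members were lower in replicate 2 than in replicate 1, as were 19 in shCTR and 19 in shMETTL14 cells. The median size of the difference between replicates was 0.06 on the log2 scale in shMETTL14 cells and 0.09 in each of the other groups. These counts and medians were not set against all genes, so whether they are particular to the members was not tested. The members' median against the mean of the shCTR libraries was -0.01 in shMETTL3 replicate 1 and -0.09 in shMETTL3 replicate 2, and 0.02 and 0.03 in the shMETTL14 libraries. The median of all tested genes lay between 0.002 and 0.007 in these libraries. Without shMETTL3 replicate 2, LSS was the 1 member that passed in shMETTL3 against shCTR cells, where 5.99% of all genes passed. Without shCTR replicate 1 the number was 4, with 11.4% of all genes, and without shCTR replicate 2 it was 11, with 19.3% of all genes, so the members' count and the share of all genes moved in the same direction.

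Fold changes of all tested genes rose with GC content. In shMETTL3 against shCTR cells the median log2 fold change ran from -0.08 in the quintile of genes with the lowest GC to 0.12 in the quintile with the highest, which holds 10 of the members. In shMETTL14 cells it ran from -0.05 to 0.08. The correction removed the trends with GC content and with transcript length together, so its effect cannot be credited to GC content alone. With both removed, DHCR7 (log2 fold change 0.10, adjusted p = 0.126), FADS2 (0.18, adjusted p = 0.0506) and TM7SF2 (0.23, adjusted p = 0.0528) no longer passed in shMETTL3 cells. FASN (-0.27, adjusted p = 0.00111), SREBF2 (-0.26, adjusted p = 0.000541), SCAP (-0.19, adjusted p = 0.0133), SREBF1 (-0.18, adjusted p = 0.00867) and SQLE (-0.16, adjusted p = 0.0413) then passed as lower. LSS went from -0.39 to -0.51 (adjusted p = 2.22e-07). In shMETTL14 cells FASN went from -0.09 to -0.20 and passed (adjusted p = 0.0215), the 1 member gained there. Between the knockdowns SCAP (-0.28, adjusted p = 0.000671), SREBF1 (-0.19, adjusted p = 0.00533) and ACACA (-0.20, adjusted p = 0.00806) were gained as lower and FADS2 was lost. The values of FASN, SCAP and SREBF1, from GC-rich transcripts, thus depended on this correction, and its part in the difference between the groups was not tested.

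**Figure D5:**
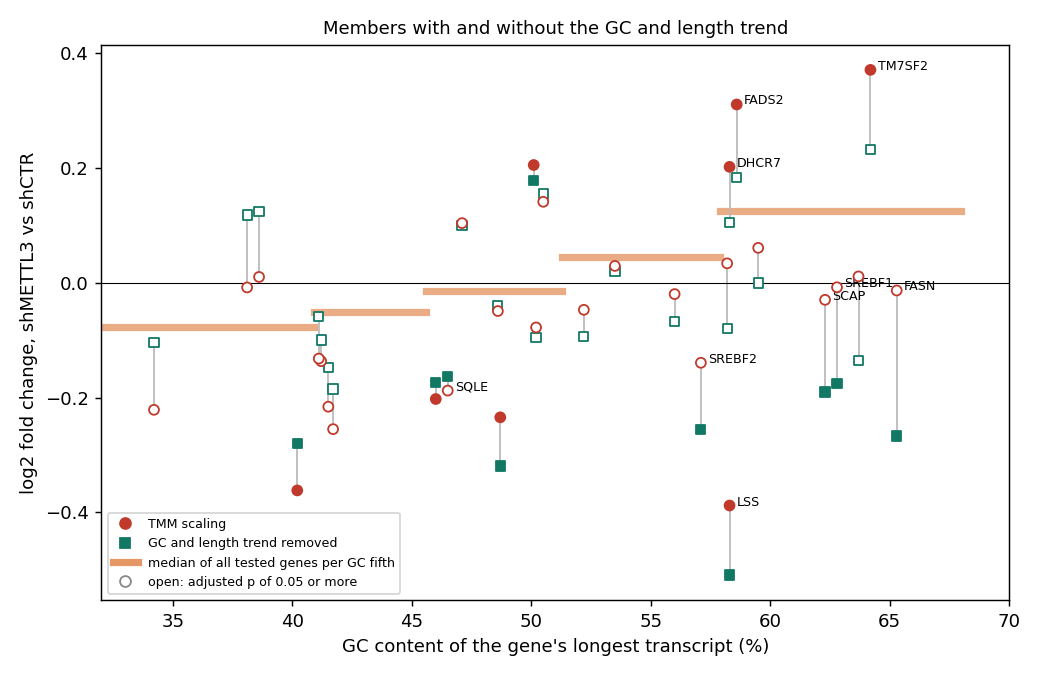
Log2 fold change of the members in shMETTL3 against shCTR cells (vertical axis) by the GC content of the longest transcript in percent (horizontal axis), with TMM scaling (circles) and with the GC and length trend removed (squares), filled for adjusted p under 0.05, and bars for the median of all tested genes in each quintile by GC. The bars climb from -0.08 to 0.12, and GC-rich members such as FASN (from -0.01 to -0.27) move down when the trend is removed.

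Beyond the 30 members, 61 related genes of SREBP processing, remaining sterol steps, isoprenoid branches, sterol uptake and storage, and other lipid synthesis were followed, of which 57 were tested. In shMETTL3 against shCTR cells 11 passed (19.3% of the 57, against 16.5% of all genes), 7 higher and 4 lower. In shMETTL14 cells 4 passed (7.02%, against 6.69%), 2 in each direction. Between the knockdowns 12 passed (21.1%, against 12.1%), 5 higher and 7 lower in shMETTL3 cells. The median log2 fold changes of the 57 were 0.007, 0.02 and 0.003.

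Of those that passed, LIPA, the lysosomal lipase that frees cholesterol from its esters, had the largest fold changes in shMETTL3 cells, at low counts. It had 1.16 and 1.46 CPM in the shCTR libraries, 3.05 and 3.29 in those of shMETTL3 and 0.814 and 1.12 in those of shMETTL14. Against shCTR cells LIPA rose by 1.27 ± 0.27 on the log2 scale in shMETTL3 cells (adjusted p = 0.00264), and between the knockdowns it differed by 1.71 ± 0.28 (adjusted p = 0.000325). ACACB, the mitochondrial counterpart of ACACA, rose by 0.83 ± 0.18 (adjusted p = 0.00271) in shMETTL3 cells, while ACACA fell, and it stood 0.81 ± 0.17 higher there than in shMETTL14 cells (adjusted p = 0.0626 without shMETTL14 replicate 2). COQ2, of ubiquinone synthesis, rose by 0.53 ± 0.11 and the elongase ELOVL7 by 0.48 ± 0.07 in shMETTL3 cells. ACAT1, the mitochondrial thiolase, fell by 0.45 ± 0.07 there and was also lower than in shMETTL14 cells (-0.38 ± 0.07).

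In shMETTL14 cells the elongase of polyunsaturated fatty acids ELOVL5, which acts between FADS2 and FADS1, had 328 and 327 CPM against 468 and 435 in shCTR cells. Its shMETTL14 libraries were the lowest of the 6, as for FADS1, and the log2 fold change was -0.46 ± 0.06 (adjusted p = 3.49e-05). In shMETTL3 cells, where FADS1 rose, ELOVL5 had 408 and 395 CPM, also under both shCTR libraries. Its log2 fold change there was -0.17 ± 0.06 (adjusted p = 0.0518). ACSL1, which activates long-chain fatty acids, fell in shMETTL14 cells by 0.56 ± 0.09 (adjusted p = 0.000441). It was 0.37 ± 0.09 higher in shMETTL3 than in shMETTL14 cells. NPC2, which passes cholesterol out of lysosomes, rose in shMETTL14 cells by 0.41 ± 0.10 and ELOVL7 by 0.32 ± 0.07. The call of NPC2 was lost with DESeq2 (adjusted p = 0.0822) and with no filter on low counts (0.0523). LPIN1, a phosphatidate phosphatase, differed by -0.33 ± 0.07 (adjusted p = 0.00266) between shMETTL3 and shMETTL14 cells. Leaving out 1 library ended the calls of NPC2 (without shCTR replicate 1, adjusted p = 0.057, and without shMETTL14 replicate 2, 0.298) and of ELOVL7 in shMETTL14 cells (without replicate 1 or 2 of shMETTL14, 0.098 and 0.0807). It also ended those between the knockdowns of ACSL1 (0.16 without shMETTL3 replicate 1, 0.0948 and 0.0862 without shMETTL14 replicate 1 and 2) and LPIN1 (0.0776 without shMETTL3 replicate 2, 0.0709 without shMETTL14 replicate 1).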

How the data were processed

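RNA-seq of 6 K562 libraries was analysed. The authors deposited counts, whole-number reads per gene and library, not normalized. The study's methods state oligo(dT) selection of mRNA and random priming. The submitters' processing notes name HTSeq 0.6.1 and hg38. The aligner, annotation and strand setting are not given in the sources used here. Of 61661 identifiers, 60675 were Ensembl genes. Reads on the other identifiers made up 0.635% to 0.703% of a library and stayed in the totals. Gene symbols were looked up by Ensembl identifier, and positions, exon lengths and GC content from GENCODE release 29 (GRCh38, the same build). Promoters came from RefSeq.

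The counts entered edgeR 4.0.16 (R 4.3.3). Low genes were removed by filterByExpr at 10 reads, which left 17686, and libraries were scaled by TMM. All 3 comparisons were quasi-likelihood tests on 1 fit of the 6 libraries. P-values were two-sided and adjusted by the Benjamini-Hochberg method over all tested genes, with a threshold of 0.05. Log2 fold changes are edgeR's and carry standard errors. CPM values are scaled by TMM factors. The members and lists were chosen with earlier results of these data known. Members past the threshold in any comparison are given in full, and of the related genes the up to 5 with the largest log2 fold change past the threshold per comparison.

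The 14 alternatives were DESeq2 1.42.0, its size factors, library size alone, no filter, only the groups compared, a replicate block, a correction for GC content and length (mgcv 1.9.3), that correction with the block, and each of the 6 libraries left out. The fits were tested on simulated data, with planted changes larger than those of the called members against shCTR cells. That test therefore does not cover changes as small as theirs. At 19292574 to 20115304 reads a library, the members had 111 or more reads each. No libraries of a group agreed within counting noise.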

Additional observations from a re-analysis of the deposited data

Results flagged for a closer look

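For 5 members the effects of the 2 hairpins differed in the direct test of shMETTL3 against shMETTL14 cells, in which the shared control cancels (edgeR, adjusted over all tested genes, 2 libraries per group). The difference in log2 fold change was -0.61 for LSS (adjusted p = 5.35e-07), 0.59 for FADS1 (adjusted p = 4.18e-07), -0.29 for STARD4 (adjusted p = 0.0198), -0.26 for ELOVL6 (adjusted p = 0.0138) and 0.22 for FADS2 (adjusted p = 0.0465). Of these, LSS and FADS1 passed against shCTR cells in both knockdowns, in opposite directions. STARD4 and ELOVL6 passed in neither comparison with shCTR cells, and FADS2 passed in shMETTL3 cells. The difference for FADS2 was lost with DESeq2 (adjusted p = 0.192), with no filter on low counts (0.108) and with the GC and length trend removed (0.15, adjusted p = 0.127).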

How the results depend on the processing

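Among the members, LSS in shMETTL3 cells, FADS1 in shMETTL14 cells and both between the knockdowns passed under all 14 alternatives. The members called ranged from 1 to 11 in shMETTL3 cells, from 1 to 6 in shMETTL14 cells and from 2 to 6 between the knockdowns as single libraries were left out, the related genes from 6 to 20, from 2 to 6 and from 4 to 16, and all genes from 1102 to 3569, from 341 to 1913 and from 942 to 2953. DESeq2 called 1757, 712 and 1242 genes in the 3 comparisons, against 2912, 1184 and 2148, and without a filter on low counts 766 were called in shMETTL14 cells. With the GC and length trend removed, 19 related genes passed between the knockdowns, against 12. Of all genes 17.4% passed in that setting, against 12.1%. Of 998 cases of a member that passed neither as reported nor under the alternative, 81 changed sign.

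Deviations of libraries with the same replicate number correlated at 0.06, 0.005 and -0.02 across genes. The numbers thus showed little pairing over all genes, but the labels do not say what they mark. With the replicate number as a block, 10, 3 and 5 members passed, against 8, 3 and 5. Of all genes 18.5%, 8.25% and 14% passed then, against 16.5%, 6.69% and 12.1%. With the block and the GC and length trend removed, 14, 6 and 8 members and 18, 9 and 20 related genes passed. Of all genes 4032, 2165 and 3603 passed under this setting (22.8%, 12.2% and 20.4%). MVD in shMETTL3 cells then turned from 0.01 to -0.14 and passed, and SREBF2 (-0.12, adjusted p = 0.0462) and ACLY (-0.13, adjusted p = 0.0212) passed in shMETTL14 cells. The causes were not tested. With 2 libraries per group and small fold changes, most calls of members rest on both libraries of a group. The falls of INSIG1, HMGCS1 and ACACA in shMETTL3 cells leaned on single libraries. Their log2 fold changes went from -0.20, -0.36 and -0.23 to -0.12, -0.19 and -0.16 without shMETTL3 replicate 2.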
